A study of Mus musculus with 9 samples.

Results

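The genes described here are 10 genes of prostaglandin synthesis and breakdown, taken by name out of the 21950 genes of a deposited expression table: Pla2g4a, Ptgs1, Ptgs2, Ptgds, Hpgds, Ptges, Ptges2, Ptgis, Hpgd and Cbr2. All were chosen with earlier results of these data known, Ptgds and Cbr2 for their far higher levels in vesicle-treated cells and the other 8 as genes of the same pathway. Whether the measured levels of those 8 also bore on the choice is not recorded, so no difference of a member from control is given a test. The measurements come from MLE-12, a mouse lung epithelial line at passage 17. Per the labels the line came from lung tumours of SP-C/TAg transgenic mice, in which a viral T antigen is driven by the promoter of surfactant protein C. It was grown in DMEM with fetal bovine serum and treated in 3 ways with 3 libraries each. The first group received extracellular vesicles collected by lung lavage, with syndecan-1 deficient mice injured by bleomycin as donors, and the second received vesicles of wild-type mice with the same injury. The third group, called control, received regular medium without vesicles. Bleomycin is a drug used to cause lung fibrosis in mice, and syndecan-1 is a heparan sulfate proteoglycan of the epithelial surface. All vesicle donors were injured, so the design holds no vesicles of uninjured mice. The 3 groups are 1 cell line at 1 passage, and neither dose, duration and donor number nor what D21 stands for in the column headers is given in the sources used here. Nor do the labels say that the 3 libraries of a group were separate cultures, so p-values measure only the spread between libraries, which may be technical.

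Prostaglandins are lipid mediators made in sequence. Phospholipase A2 frees arachidonic acid from membranes, the cyclooxygenases Ptgs1 and Ptgs2 turn it into prostaglandin H2, and terminal synthases turn prostaglandin H2 into prostaglandin D2, E2, F2 or prostacyclin. In lung these lipids act on airway tone, inflammation and fibroblasts, and Hpgd starts their inactivation.

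Ptgds, the lipocalin-type prostaglandin D synthase, averaged 42.1 RPKM with syndecan-1 deficient vesicles and 36.8 RPKM with wild-type vesicles, against 0.439 RPKM in control. Both cyclooxygenase genes were lower. Ptgs1 averaged 0.150 RPKM with syndecan-1 deficient vesicles and 0.171 RPKM with wild-type vesicles, against 1.91 RPKM in control. Ptgs2 averaged 0.433 and 0.409 RPKM with deficient and wild-type vesicles, against 1.39 RPKM in control. Pla2g4a and Cbr2 were higher and Ptges2 was lower with vesicles, while Hpgds, Ptges, Ptgis and Hpgd stayed under 0.16 RPKM in every library. RPKM are reads scaled by gene length and library total, so levels can be compared between genes.

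**Figure D1:**
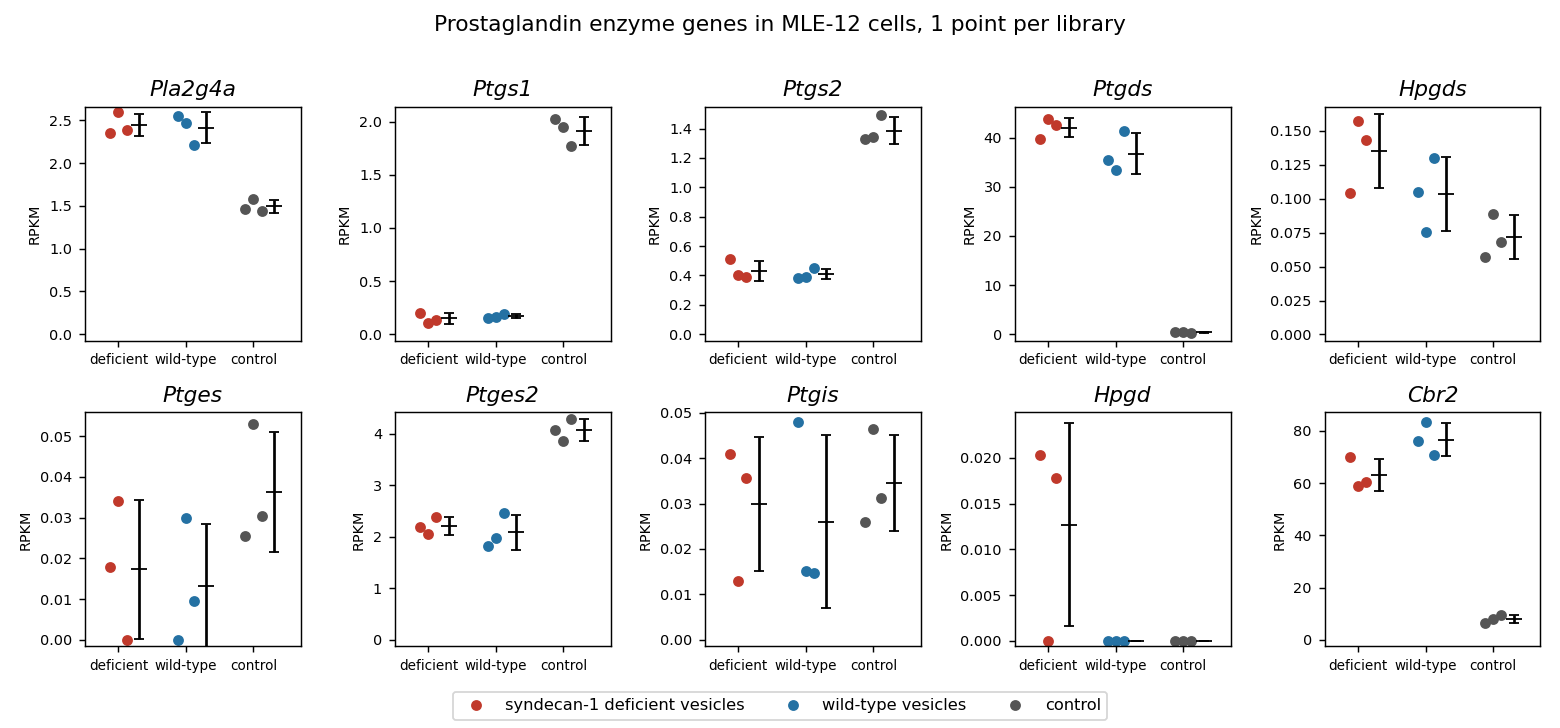
RPKM of the 10 genes in each library of syndecan-1 deficient vesicles, wild-type vesicles and control. Each point is 1 library, the bar gives mean and SD of the 3 libraries, and each panel has its own linear axis. Ptgds, Cbr2 and Pla2g4a have all 6 vesicle-treated libraries above control, and Ptgs1, Ptgs2 and Ptges2 have all 6 below it.

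Of the 10 genes, 4 had a mean of at least 1 RPKM over the 9 libraries and were among the 11125 genes fitted (limma on log2(RPKM + 1), with genes called at a Benjamini-Hochberg adjusted p under 0.05). Ptgds had 0.439 RPKM in control and reached that level through the vesicle libraries. Calls against control were common: 75.2% of tested genes were called with syndecan-1 deficient vesicles over control, 48.8% higher and 26.5% lower. With wild-type vesicles over control 75.1% were called, 45.0% higher and 30.0% lower. A call against control therefore does not set a gene apart here. The 2 vesicle comparisons share the same control libraries. After median-of-ratios scaling of the libraries the share of higher genes among the called ones was 45.5% in place of 64.8% for deficient vesicles, and 46.8% in place of 60.0% for wild-type vesicles. The median log2 fold change of all tested genes was then −0.04 in place of 0.13 for deficient vesicles and −0.03 in place of 0.09 for wild-type vesicles, and the directions of the 4 fitted members over control were kept.

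Totals per library, recovered from the steps of the RPKM values, were 28605783 to 32785456 reads with syndecan-1 deficient vesicles, 24353257 to 26338900 with wild-type vesicles and 25024077 to 33558660 in control. Control columns carry only the line name and a number, and were assigned to control by elimination. On the second principal component (10.2% of the variance) wild-type library 3 lay at −2.41, against 14.4 and 17.2 for wild-type libraries 1 and 2 and −6.82 to −13.3 for the deficient libraries. For Ptgds, Cbr2 and the counts of called genes, results between the 2 vesicle groups are therefore also given without it. Of the epithelial markers, Epcam was at 0 in every library and Cdh1 was at 0.12 to 0.183 RPKM with deficient vesicles, 0.137 to 0.189 with wild-type vesicles and 1.34 to 1.40 in control. The keratin Krt8 had 153 to 173 RPKM with deficient and 174 to 187 with wild-type vesicles, against 333 to 342 in control. Krt18 lay the other way, with 0.574 to 0.872 RPKM with deficient and 0.515 to 0.615 with wild-type vesicles, against 0.228 to 0.430 in control. Sftpd and Lamp3 were under 0.03 RPKM in every library. The other listed surfactant genes were higher with vesicles. Sftpb had 57.1 to 64.6 RPKM with deficient and 57.7 to 71.1 with wild-type vesicles, against 12.3 to 15.3 in control. Sftpc and Sftpa1 were also higher in all vesicle-treated libraries, and so were Abca3 and the lung transcription factor Nkx2-1.

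The first step of the pathway is the release of arachidonic acid. Pla2g4a, the cytosolic phospholipase A2, lies on chromosome 1 at 149829618 to 149961290 (minus strand, GRCm38). It had 2.36, 2.60 and 2.39 RPKM with syndecan-1 deficient vesicles, 2.56, 2.47 and 2.22 with wild-type vesicles, and 1.46, 1.59 and 1.44 in control. The 6 vesicle-treated libraries were all above the 3 controls, and the 2 vesicle groups overlapped. Such a gap was common: among the 18207 genes above 0, all deficient libraries were above control in 41.0% and below it in 20.8%, and all wild-type libraries in 36.4% and 22.6%. Pla2g4a was 0.47 ± 0.06 higher than control on the log2(RPKM + 1) scale with deficient vesicles and 0.45 ± 0.06 higher with wild-type vesicles (SE). Between the vesicle groups the difference was 0.01 (95% interval −0.11 to 0.14, adjusted p = 0.873).

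Of 19 other listed phospholipase A2 genes 8 were tested, and in each vesicle comparison 6 were called higher, 1 lower and 1 was not called. Beside them, 48.8% of all tested genes were higher and 26.5% lower with deficient vesicles, and 45.0% and 30.0% with wild-type vesicles. After median-of-ratios scaling 5 were higher and 2 lower with deficient vesicles, beside 34.4% and 41.1% of all tested genes. With wild-type vesicles that scaling kept 6 higher and 1 lower, beside 35.6% and 40.4%. Pla2g16 and Pla2g4b were under 1 RPKM in control and reached the level of the test through the vesicle libraries. Pla2g5, a secreted phospholipase, averaged 15.7 ± 1.15 RPKM with deficient vesicles and 15.4 ± 1.12 with wild-type vesicles, against 8.79 ± 0.287 in control (SD, n = 3 each). Pla2g16 had 1.70 ± 0.076, 2.08 ± 0.277 and 0.848 ± 0.059 RPKM in the same order of groups. Pla2g4b and Pla2g4c, relatives of Pla2g4a, rose by 0.43 and 0.51 on the log2 scale with deficient vesicles and by 0.44 and 0.27 with wild-type vesicles. For Pla2g4b 64.2% of its exonic 50-base sequences also occur in other annotated genes, most often in the overlapping gene model Gm28042, so its reads are uncertain. Pla2g12a, the exception, fell by 0.38 with deficient and by 0.28 with wild-type vesicles. The call of Pla2g12a with wild-type vesicles was lost without wild-type libraries 1 and 2 together (adjusted p = 0.136). That of Pla2g15 with deficient vesicles, a rise of 0.40, was lost under median-of-ratios scaling (0.22, adjusted p = 0.0502).

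The second step is catalysed by the cyclooxygenases. Ptgs1, the form usually described as constitutive, lies on chromosome 2 at 36230426 to 36252272 (plus strand). It had 0.205, 0.107 and 0.138 RPKM with syndecan-1 deficient vesicles, 0.153, 0.167 and 0.192 with wild-type vesicles, and 2.02, 1.95 and 1.77 in control. All vesicle-treated libraries were far under all controls. In recovered reads these are 22, 12 and 17 with deficient vesicles, 14, 16 and 19 with wild-type vesicles, and 227, 245 and 166 in control. The mean RPKM was 12.7-fold lower with deficient vesicles and 11.2-fold lower with wild-type vesicles than in control. Ptgs1 was not in the test because its mean over the libraries was 0.744 RPKM.

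Ptgs2, the form induced by many stimuli, lies on chromosome 1 at 150100031 to 150108227 (plus strand). It had 0.511, 0.402 and 0.386 RPKM with deficient vesicles, 0.386, 0.393 and 0.448 with wild-type vesicles, and 1.33, 1.34 and 1.49 in control. Again every vesicle-treated library was under every control, and the 2 vesicle groups overlapped. The mean was 3.20-fold lower with deficient and 3.39-fold lower with wild-type vesicles, from 180 and 143 reads in 3 libraries, against 559 reads in control.

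Ptgs1 and Ptgs2 together summed to 0.583 ± 0.115 RPKM with deficient vesicles and 0.579 ± 0.053 with wild-type vesicles, against 3.30 ± 0.047 in control (SD, n = 3 each). Ptgs1 made up 25.3% of that sum with deficient and 29.4% with wild-type vesicles, against 57.9% in control. The larger part of the remaining cyclooxygenase transcript with vesicles was thus Ptgs2, while control had more Ptgs1. Between the 2 vesicle groups neither gene was called without the level filter (adjusted p = 0.733 for Ptgs1 and 0.765 for Ptgs2), in a fit that called 0.00549% of genes.

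The third step splits into branches, of which the D branch is given first. Ptgds lies on chromosome 2 at 25466709 to 25470046 (minus strand) and overlaps no other annotated gene. The enzyme is secreted, belongs to the lipocalin family and also carries small lipophilic molecules. It had 39.8, 43.8 and 42.6 RPKM with syndecan-1 deficient vesicles, 35.5, 33.4 and 41.3 with wild-type vesicles, and 0.568, 0.434 and 0.315 in control. No vesicle-treated library was anywhere near a control. The reads behind these values were 1876, 2152 and 2299 with deficient vesicles, 1423, 1408 and 1793 with wild-type vesicles, and 28, 24 and 13 in control. The ratio of mean RPKM to control was 95.7 for deficient and 83.7 for wild-type vesicles, given as a description because this difference chose the gene. By level Ptgds ranked 1266 to 1447 with deficient vesicles and 1351 to 1727 with wild-type vesicles, against 11376 to 11937 in control. None of its exonic 50-base sequences occurs in another annotated gene.

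Between the vesicle groups Ptgds was 0.19 ± 0.08 higher with deficient vesicles on the log2 scale (SE, adjusted p = 0.12, unadjusted 95% interval 0.01 to 0.38). In this comparison 18.4% of tested genes were called, 12.9% higher and 5.43% lower, and none of the 4 tested members. An unadjusted limma p under 0.05 was found for 2 of the 4, beside 4244 of all 11125 tested genes. The overlap came from wild-type library 3, whose 41.3 RPKM lay within the range of the deficient libraries. Without that library the difference was 0.28 (adjusted p = 0.0108). Without wild-type libraries 1 and 2 together it was 0.02 (adjusted p = 0.953).

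Hpgds, the glutathione-dependent prostaglandin D synthase of mast cells and other blood cells, lies on chromosome 6 at 65117293 to 65144908 (minus strand). It had 0.105, 0.157 and 0.143 RPKM with deficient vesicles, 0.105, 0.075 and 0.130 with wild-type vesicles, and 0.057, 0.089 and 0.068 in control. The deficient libraries were all above control, while wild-type libraries and control overlapped. These are 58, 37 and 30 reads over 3 libraries each with deficient vesicles, wild-type vesicles and in control. Between the vesicle groups the fit without the level filter gave an adjusted p of 0.31, in a fit that called 0.00549% of genes. Ptgds made up 99.7% of the summed RPKM of the 2 D synthases with deficient and with wild-type vesicles, against 85.3% in control. Of the 8 mast cell markers Cpa3, Fcer1a and Tpsb2 were at 0 in every library. Kit had 0.187 to 0.251 RPKM with deficient and 0.186 to 0.244 with wild-type vesicles, against 0.0303 to 0.0544 in control, and Hdc was likewise higher in all vesicle-treated libraries, while Tpsab1 was lower in all of them. The 8 markers summed to 0.803 to 1.59 RPKM with deficient vesicles, 0.886 to 1.21 with wild-type vesicles and 0.903 to 1.07 in control.

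Summed fibroblast and endothelial markers were higher where Ptgds was. The 8 fibroblast markers summed to 791 to 917 RPKM with deficient vesicles and 751 to 893 with wild-type vesicles, against 272 to 281 in control, with 7 above 0. Dcn made up most of it, Pdgfra was also higher with vesicles, Col1a1 was lower, Col3a1 and Col1a2 were under 0.06 RPKM, and Tcf21 was at 0. The 6 endothelial markers summed to 2.28 to 2.53 RPKM with deficient and 2.47 to 2.62 with wild-type vesicles, against 1.04 to 1.30 in control, most of it Tek, with Cdh5, Cldn5 and Kdr under 0.05 RPKM. Neutrophil markers summed to 0.146 to 0.361, 0.0716 to 0.230 and 0.0379 to 0.0761 RPKM with deficient vesicles, wild-type vesicles and in control, with Ly6g and Retnlg at 0. Macrophage markers summed to 2.58 to 3.18, 2.17 to 2.61 and 2.84 to 2.97 RPKM with deficient vesicles, wild-type vesicles and in control, with Marco, Chil3 and Siglecf at 0. Erythroid markers summed to 2.56 to 17.4 RPKM with deficient vesicles, 0.591 to 0.71 with wild-type vesicles and 1.01 to 2.93 in control. The part of these cells or their RNA in the Ptgds levels was not tested, and in bulk RNA fewer cells of a type and less RNA per cell cannot be told apart.

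**Figure D2:**
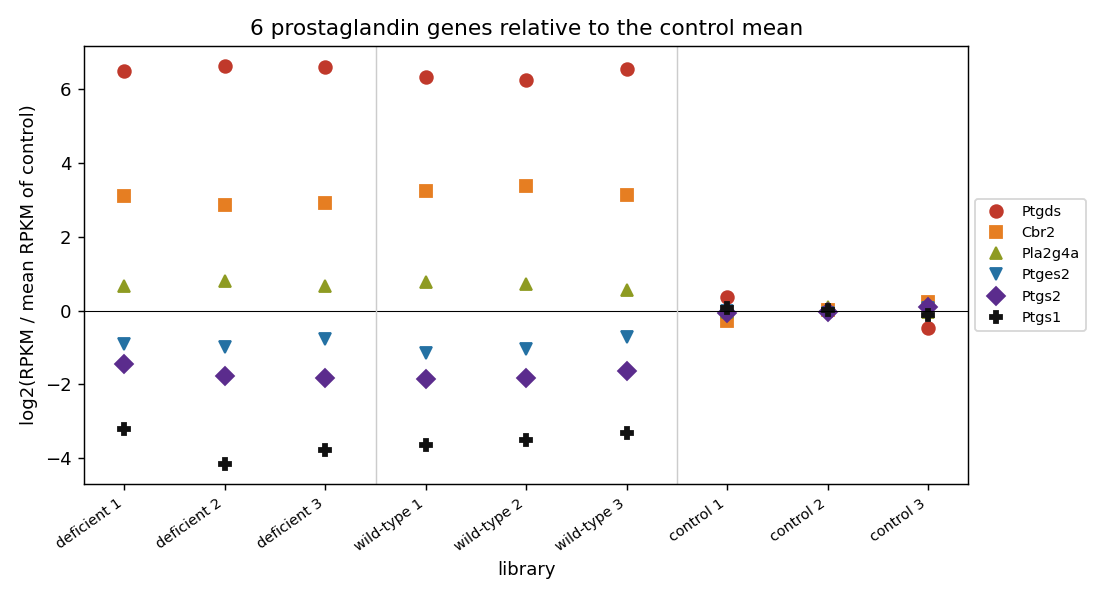
log2 ratio of RPKM to the control mean, without pseudocount, for 6 genes in the 9 libraries. Each symbol is 1 gene in 1 library. Ptgds (means 95.7-fold higher with deficient and 83.7-fold higher with wild-type vesicles) and Ptgs1 (12.7-fold and 11.2-fold lower) mark the 2 ends in every vesicle-treated library.

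Set against the step before it, the ratio of Ptgds to Ptgs1 plus Ptgs2 in RPKM was 55.6, 85.9 and 81.2 with deficient vesicles and 65.9, 59.8 and 64.6 with wild-type vesicles, against 0.170, 0.132 and 0.0968 in control. In control the summed cyclooxygenases were thus above Ptgds, and with vesicles Ptgds was far above them. These are transcript ratios, and no enzyme activity or prostaglandin was measured.

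With Ptges3 counted, the E branch had higher summed levels than the D branch. Ptges plus Ptges2 alone averaged 2.22 RPKM with deficient and 2.1 with wild-type vesicles, against 4.11 in control. Without Ptges3 the E branch was thus under the D branch with vesicles and above it in control. Ptges, Ptges2 and Ptges3 summed to 106 ± 5.44 RPKM with deficient and 97.1 ± 11.3 with wild-type vesicles, against 153 ± 3.66 in control, while Ptgds plus Hpgds came to 42.2 ± 2.05, 36.9 ± 4.12 and 0.511 ± 0.121 (SD, n = 3 each). Ptges2, the membrane-associated prostaglandin E synthase, lies on chromosome 2 at 32395896 to 32405772 (plus strand). It had 2.18, 2.05 and 2.39 RPKM with deficient vesicles, 1.83, 1.97 and 2.47 with wild-type vesicles, and 4.08, 3.87 and 4.29 in control. All vesicle-treated libraries were under all controls. The log2 fold change of Ptges2 over control was −0.66 ± 0.08 with deficient and −0.72 ± 0.08 with wild-type vesicles (SE). Between the vesicle groups it differed by 0.06 (95% interval −0.12 to 0.23, adjusted p = 0.613). Ptges, the inducible microsomal E synthase, gave 2, 4 and 0 reads with deficient vesicles, 0, 3 and 1 with wild-type vesicles, and 3, 7 and 3 in control. A difference in Ptges was not detectable at this depth. Ptges3, the cytosolic E synthase that is also the chaperone partner p23, was the most abundant of the 3. It fell to 104 ± 5.42 RPKM with deficient and 95.0 ± 11.0 with wild-type vesicles, against 148 ± 3.59 in control (SD, n = 3 each, adjusted p = 0.000114 and 2.07e-05). Of its exonic 50-base sequences 19.6% also occur elsewhere, mostly in the pseudogene Ptges3-ps.

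Ptgis, the prostacyclin synthase on chromosome 2 at 167191805 to 167240604 (minus strand), gave 3, 1 and 3 reads with deficient vesicles, 3, 1 and 1 with wild-type vesicles, and 2, 4 and 2 in control. An annotated antisense gene overlaps it, and whether reads were counted by strand is not given in the sources used here. Hpgd, the inactivating dehydrogenase on chromosome 8 at 56294585 to 56321043 (plus strand), was listed at 0.020 and 0.018 RPKM in deficient libraries 1 and 3 and at 0 in the other libraries. Neither gene was above 0.05 RPKM in any library, so no difference was detectable.

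Cbr2, a carbonyl reductase abundant in mouse lung, lies on chromosome 11 at 120729489 to 120732114 (minus strand). Cbr2 had 70.1, 58.8 and 60.5 RPKM with deficient vesicles, 76.2, 83.2 and 70.6 with wild-type vesicles, and 6.63, 8.11 and 9.49 in control. The 3 groups did not overlap, with wild-type vesicles highest and control lowest. The ratio of means to control was 7.82 for deficient and 9.50 for wild-type vesicles, again a description since this difference chose the gene. Cbr2 was 0.28 ± 0.11 lower with deficient than with wild-type vesicles (SE, adjusted p = 0.0982, unadjusted 95% interval −0.52 to −0.03). Groups that did not overlap made up 24.5% of genes in this comparison. It was −0.35 to −0.22 when 1 library was left out, called only without wild-type library 3 (−0.33, adjusted p = 0.0418), and −0.16 without wild-type libraries 1 and 2 together (adjusted p = 0.736). With voom on the recovered reads it was called (−0.28, adjusted p = 0.0353). The ratio of Ptgds to Cbr2 was 0.568, 0.744 and 0.704 with deficient, 0.466, 0.402 and 0.585 with wild-type vesicles, and 0.0858, 0.0536 and 0.0333 in control. Of the exonic 50-base sequences of Cbr2 12.1% also occur in another gene, mostly in the nearby pseudogene Gm11771, which has no row in the table. Cbr2 is known from club cells of the mouse airway, and 9 airway markers summed to 14.3 to 15.7 RPKM with deficient and 18.6 to 22.8 with wild-type vesicles, against 28.2 to 29.0 in control. Muc5b made up most of it, and the club cell genes Scgb1a1, Scgb3a2 and Cyp2f2 were at 0 or at most 0.250 RPKM. Muc5b, Muc5ac and Trp63 were lower in all vesicle-treated libraries than in control, while Foxj1 went the other way. Foxj1 had 1.41 to 1.71 RPKM with deficient and 1.03 to 1.30 with wild-type vesicles, against 0.152 to 0.216 in control.

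The promoters of the genes with the largest differences are shown because Ptgds and Cbr2 were both higher and Ptgs1 and Ptgs2 both lower with vesicles. The sequences are from RefSeq on GRCm38.p6, 250 bases before to 50 after the annotated start, and 9 of the 10 members matched. Each is written 5′ to 3′ on the strand of the gene, with motif matches in capitals. Their positions are chr2:25469700-25469999 (minus) for Ptgds, chr11:120731972-120732271 (minus) for Cbr2, chr2:36230176-36230475 (plus) for Ptgs1 and chr1:150099781-150100080 (plus) for Ptgs2.
Ptgds: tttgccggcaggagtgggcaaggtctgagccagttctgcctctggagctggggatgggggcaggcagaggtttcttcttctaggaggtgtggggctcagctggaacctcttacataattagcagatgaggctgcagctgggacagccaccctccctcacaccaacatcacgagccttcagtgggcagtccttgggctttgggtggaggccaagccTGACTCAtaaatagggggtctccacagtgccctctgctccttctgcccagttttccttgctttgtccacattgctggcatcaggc
Cbr2: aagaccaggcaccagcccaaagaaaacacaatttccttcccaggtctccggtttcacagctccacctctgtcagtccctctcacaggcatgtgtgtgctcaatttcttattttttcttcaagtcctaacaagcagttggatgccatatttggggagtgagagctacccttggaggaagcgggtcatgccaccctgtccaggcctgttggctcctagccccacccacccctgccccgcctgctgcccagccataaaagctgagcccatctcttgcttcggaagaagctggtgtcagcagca
Ptgs1: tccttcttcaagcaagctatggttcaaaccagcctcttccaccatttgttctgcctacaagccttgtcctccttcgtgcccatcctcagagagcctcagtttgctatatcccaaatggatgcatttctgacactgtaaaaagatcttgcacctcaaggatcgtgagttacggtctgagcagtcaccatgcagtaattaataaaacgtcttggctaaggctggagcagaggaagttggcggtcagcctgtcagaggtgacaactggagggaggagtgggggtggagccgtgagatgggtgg
Ptgs2: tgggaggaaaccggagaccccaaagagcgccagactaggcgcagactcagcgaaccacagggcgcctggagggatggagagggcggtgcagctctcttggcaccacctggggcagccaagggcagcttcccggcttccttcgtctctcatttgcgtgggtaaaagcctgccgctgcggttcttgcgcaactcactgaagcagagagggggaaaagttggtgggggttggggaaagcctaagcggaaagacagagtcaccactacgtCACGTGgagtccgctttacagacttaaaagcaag
The 6 motifs searched on both strands were the TATA box (TATAAA), the CCAAT box, the E-box (CACGTG), the cyclic AMP response element (TGACGTCA), the AP-1 site (TGACTCA) and the interferon-stimulated response element. Ptgds has 1 match, the AP-1 letters TGACTCA starting 35 bases before the start, which 5.20% of the 32851 promoters of this length hold. Ptgs2 has 1 match, the E-box letters CACGTG starting at base 17 after the start, which 7.15% of promoters hold. Cbr2 and Ptgs1 have no match to any of the 6, and no match overlaps another. The 2 higher genes share no motif of this search, nor do the 2 lower ones. GC content was 57.7% for Ptgds, 54.7% for Cbr2, 50.7% for Ptgs1 and 59.3% for Ptgs2, and the median of all promoters was 52.7%. Ptgs2 had 16 CpG dinucleotides in the window, against 2 in Ptgds, 4 in Cbr2 and 6 in Ptgs1. A match is a description of letters and no evidence of binding.

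Beyond the 10 genes, 64 other genes of eicosanoid metabolism and response were listed, of which 58 were above 0 and 25 were tested. In each vesicle comparison 15 rose, 6 fell and 4 were not called, and the same 21 genes made up both sets of calls in the same directions. Both comparisons share the control libraries. Among all tested genes 48.8% were called higher and 26.5% lower with deficient vesicles, and 45.0% and 30.0% with wild-type vesicles. Of the 15 rises, those of Pla2g4b, Pla2g16, Alox5ap and Cyp2j9 had under 1 RPKM in control, so the level filter favoured them. Without that filter 20 of the 58 genes above 0 were called higher and 10 lower in each comparison. In that fit 54.0% of all genes were called with deficient vesicles, 36.1% higher and 17.9% lower, and 53.3% with wild-type vesicles, 32.8% higher and 20.5% lower. With the filter the median log2 fold change was 0.43 with deficient and 0.44 with wild-type vesicles, against 0.13 and 0.09 over all tested genes. After median-of-ratios scaling 13 rose and 8 fell with deficient vesicles, and 14 rose and 7 fell with wild-type vesicles. Among all tested genes that scaling called 34.4% higher and 41.1% lower with deficient vesicles, and 35.6% higher and 40.4% lower with wild-type vesicles.

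**Figure D3:**
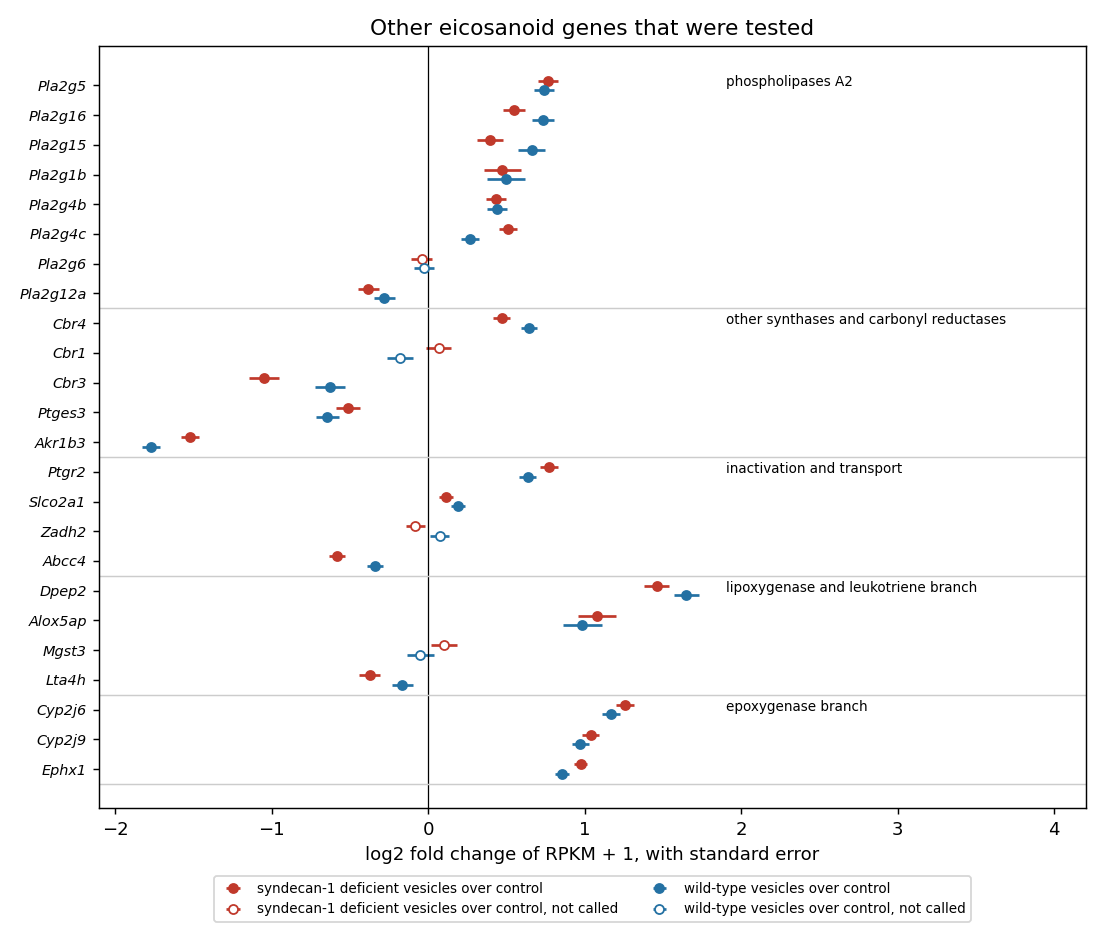
log2 fold change of RPKM + 1 over control, with its standard error, of the tested eicosanoid genes outside the 10 members other than Ptger1, grouped by role. Red points are syndecan-1 deficient vesicles over control, blue points wild-type vesicles over control, and open points were not called. Phospholipases and genes of the epoxygenase branch lie mostly right of 0, and Akr1b3 (−1.52 and −1.77) lies farthest left.

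Of 5 tested genes among the other terminal synthases and carbonyl reductases 1 was called higher and 3 lower in each vesicle comparison, beside 26.5% of all tested genes lower with deficient and 30.0% with wild-type vesicles. Akr1b3, an aldose reductase that also makes prostaglandin F, fell to 13.8, 14.6 and 15.1 RPKM with deficient and 12.2, 11.1 and 12.8 with wild-type vesicles, against 42.0, 44.9 and 43.3 in control. All vesicle-treated libraries were under control, and the deficient libraries were all above the wild-type libraries. The log2 fold change was −1.52 ± 0.06 with deficient (SE, adjusted p = 7.61e-09) and −1.77 ± 0.06 with wild-type vesicles (adjusted p = 4.20e-09). Cbr3 fell to 7.54 ± 0.293 RPKM with deficient and 10.6 ± 1.84 with wild-type vesicles, against 16.7 ± 0.544 in control. Cbr4 rose to 5.21 ± 0.372 and 6.01 ± 0.217 RPKM with deficient and wild-type vesicles, against 3.48 ± 0.116 in control. Cbr2 was therefore not matched in direction by every carbonyl reductase, and Cbr1 was not called with deficient (0.07, adjusted p = 0.476) or wild-type vesicles (−0.18, adjusted p = 0.0695). The Cbr1 value with wild-type vesicles was called without wild-type library 3 (−0.29, adjusted p = 0.00017) and under median-of-ratios scaling (−0.31, adjusted p = 0.00376). Part of the Akr1b3 sequence, 13.6%, also occurs in another annotated gene.

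Inactivation and transport genes gave 2 rises and 1 fall among 4 tested in each vesicle comparison. Of all tested genes 48.8% were higher and 26.5% lower with deficient vesicles, and 45.0% and 30.0% with wild-type vesicles. After median-of-ratios scaling the list gave 1 rise and 2 falls with deficient vesicles, and 1 rise and 1 fall with wild-type vesicles. Ptgr2, a reductase of prostaglandin breakdown, rose to 14.4 ± 0.879 RPKM with deficient and 13.0 ± 0.599 with wild-type vesicles, against 8.04 ± 0.465 in control, and 30.3% of its exonic 50-base sequences also occur elsewhere, mostly in Gm47484. Abcc4, an export pump for prostaglandins, fell to 3.43 ± 0.057 and 4.26 ± 0.321 RPKM with deficient and wild-type vesicles, against 5.64 ± 0.089 in control. Slco2a1, the prostaglandin uptake carrier, had 28.2 ± 0.840 RPKM with deficient and 29.8 ± 1.47 with wild-type vesicles, against 26.0 ± 0.522 in control. Both small rises of Slco2a1 were lost under median-of-ratios scaling, where the values were −0.08 with deficient (adjusted p = 0.16) and 0.05 with wild-type vesicles (adjusted p = 0.353). With deficient vesicles the call was also lost without any one of control libraries 1, 2 and 3, deficient libraries 2 and 3 or wild-type library 1 (adjusted p 0.0574 to 0.126). With wild-type vesicles it was also lost without wild-type libraries 1 and 2 together (adjusted p = 0.0661).

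Of the 9 prostanoid receptor genes only Ptger1 reached the level of the test. It is counted among the 25 tested genes, and its reads could not be assigned to it with certainty. The D2 receptor Ptgdr was at 0 in every library. The other D2 receptor, Ptgdr2, had 0.912, 0.811 and 0.934 RPKM with deficient and 0.683, 0.695 and 0.790 with wild-type vesicles, against 1.18, 0.902 and 1.01 in control. Of its exonic 50-base sequences 37.8% also occur elsewhere, most often in Ccdc86. Wild-type libraries of Ptgdr2 lay under control and under the deficient libraries, and deficient libraries overlapped control. Ptger4 averaged 0.331, 0.213 and 0.304 RPKM with deficient vesicles, wild-type vesicles and in control. Ptger2, Ptger3, Ptgir, Ptgfr and Tbxa2r were under 0.2 RPKM in every library.

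The lipoxygenase and epoxygenase branches compete for the same fatty acid. Dpep2, a dipeptidase of leukotriene processing, rose to 10.3 ± 0.570 RPKM with deficient and 11.9 ± 1.03 with wild-type vesicles, against 3.10 ± 0.370 in control. Of its exonic 50-base sequences 36.6% also occur elsewhere, most often in a second annotated gene of the same name. Alox5ap, the helper protein of leukotriene synthesis, had 3.15, 1.98 and 1.91 RPKM with deficient and 2.11, 2.26 and 1.93 with wild-type vesicles, against 0.471, 0.693 and 0.535 in control. All vesicle-treated libraries of Alox5ap were above control, and it reached the level of the test through them. Lta4h, which makes leukotriene B, fell to 19.6 ± 0.733 RPKM with deficient and 22.9 ± 1.99 with wild-type vesicles, against 25.7 ± 1.78 in control. With wild-type vesicles that call of Lta4h (adjusted p = 0.0464) was lost without either of control libraries 1 and 3, any deficient library or either of wild-type libraries 2 and 3 (adjusted p 0.0534 to 0.152). The 3 tested genes of the epoxygenase branch, Ephx1, Cyp2j6 and Cyp2j9, were called higher in both comparisons. So were 48.8% of all tested genes with deficient and 45.0% with wild-type vesicles. Ephx1, the microsomal epoxide hydrolase, reached 88.2 ± 1.10 RPKM with deficient and 81.2 ± 3.21 with wild-type vesicles, against 44.4 ± 1.34 in control. Cyp2j6, an epoxygenase, had 3.93 ± 0.270 and 3.64 ± 0.046 RPKM with deficient and wild-type vesicles, against 1.06 ± 0.101 in control. Its relative Cyp2j9 had 1.62 ± 0.047, 1.50 ± 0.078 and 0.275 ± 0.042 RPKM in the same order of groups, and reached the level of the test through the vesicle libraries.

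Between the 2 vesicle groups 5 of the 25 pathway genes were called, beside 18.4% of all tested genes. Pla2g4c and Akr1b3 were higher and Cbr3, Cbr4 and Abcc4 were lower with deficient vesicles. Pla2g4c had 2.16, 1.91 and 2.12 RPKM with deficient and 1.53, 1.71 and 1.51 with wild-type vesicles, a log2 fold change of 0.24 ± 0.06 (adjusted p = 0.0303). Cbr3 had 7.23, 7.82 and 7.56 RPKM with deficient and 12.2, 11.0 and 8.57 with wild-type vesicles, a log2 fold change of −0.43 ± 0.10 (adjusted p = 0.0278). Abcc4 had 3.36, 3.44 and 3.47 RPKM with deficient and 4.29, 4.56 and 3.92 with wild-type vesicles, a log2 fold change of −0.25 ± 0.05 (adjusted p = 0.0258). In all 5 called genes the 2 vesicle groups did not overlap, beside 24.5% of all genes above 0, and the calls rest on this same difference. For Cbr3 and Abcc4 wild-type library 3 was the wild-type library nearest to the deficient ones. The count depends on single libraries. It was 15 without wild-type library 3, 3 without control library 1, and 0 without any one of deficient libraries 2 and 3 and wild-type libraries 1 and 2. In the fits that called 0, limma gave 8 to 12 of the 25 genes an unadjusted p under 0.05, beside 2818 to 3581 of all 11125 tested genes.

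The lipocalin family, to which the Ptgds protein belongs, was otherwise almost silent. The table has 20 other lipocalin genes, of which 10 were above 0 and 2 were tested. C8g rose to 1.67 ± 0.334 RPKM with deficient and 1.31 ± 0.162 with wild-type vesicles, against 0.690 ± 0.240 in control, a level under that of the test. Rbp4 averaged 2.77, 2.17 and 3.00 RPKM with deficient vesicles, wild-type vesicles and in control. Lcn2, an epithelial lipocalin induced in inflammation, averaged 0.054, 0.027 and 0.0041 RPKM in the same order.

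C8g and Lcn12 also sit beside Ptgds on chromosome 2. The 4 tested neighbours of Ptgds were called higher in both vesicle comparisons, as were 48.8% of all tested genes with deficient and 45.0% with wild-type vesicles. Of these 4, C8g reached the level of the test through the vesicle libraries, so the level filter favoured its rise. Paxx rose by 1.25 with deficient and 1.08 with wild-type vesicles, Clic3 by 0.79 and 0.89, C8g by 0.66 and 0.46, and Fbxw5 by 0.34 and 0.46 on the log2 scale. Paxx and Clic3 overlap on opposite strands, as do C8g and Fbxw5, so their reads may be mixed. Lcn12, the next gene on the other side of Ptgds from Paxx and Clic3, averaged 0.154 RPKM with deficient and 0.098 with wild-type vesicles and was listed at 0 in control. Beside Cbr2 on chromosome 11, Dcxr rose by 0.60 and 0.91, Rac3 by 0.92 and 0.88, and Lrrc45 by 0.89 and 0.95 with deficient and wild-type vesicles, while Hmga1b fell by 1.03 and 0.98. Rfng was called with deficient vesicles (0.27, adjusted p = 0.00648), a call lost under median-of-ratios scaling (0.08, adjusted p = 0.288), and not with wild-type vesicles (0.12, adjusted p = 0.164). None of the tested neighbours differed from control by as much as Ptgds or Cbr2, which is a description, since this difference chose those 2 genes.

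**Figure D4:**
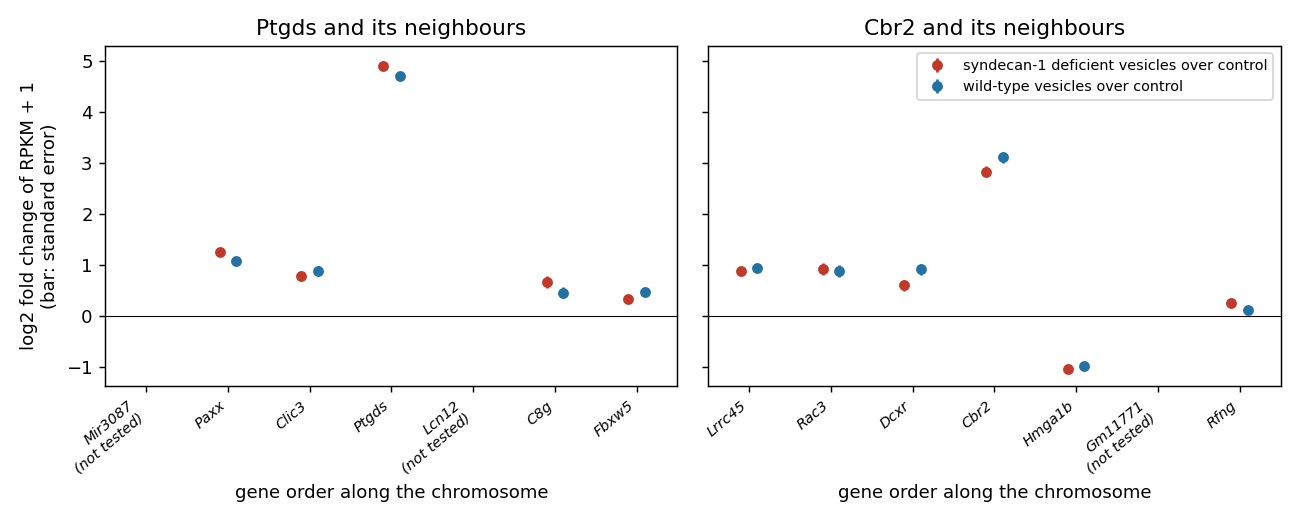
log2 fold change of RPKM + 1 over control, with its standard error, of Ptgds and Cbr2 and the 3 annotated genes on either side, in chromosome order. Red points are syndecan-1 deficient vesicles, blue points wild-type vesicles. Ptgds (4.91 and 4.71) and Cbr2 (2.83 and 3.11) were chosen for this difference, and stand above all their tested neighbours.

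The genes most like Ptgds were ranked by Pearson correlation of log2(RPKM + 1), as a description. Over all 9 libraries the leading gene was Gpr146, with r = 0.9995, followed by Creg1, Psd3, Natd1, Plin3, Neurl1b, Fnip2 and Gbp7, down to r = 0.9986. These mainly share the difference between vesicles and control. Psd3 had 2.97, 2.74 and 0.543 RPKM with deficient vesicles, wild-type vesicles and in control, and Plin3, a lipid droplet coat protein, had 73.0, 69.5 and 24.4 RPKM. Over the 6 vesicle-treated libraries alone the leading genes were Dlat, Pole4, Nelfb, Tmem59, Ap2b1, Nab1, Fam219b and Snx17, with r of 0.9984 to 0.9954, and no gene was in both sets of 8. Dlat, a subunit of the pyruvate dehydrogenase complex, had 10.1, 11.3 and 10.9 RPKM with deficient and 8.98, 8.45 and 10.5 with wild-type vesicles, against 11.6, 11.6 and 11.5 in control. Like Ptgds, its wild-type library 3 lay beside the deficient libraries, but unlike Ptgds its control level was above all vesicle-treated libraries. With 6 libraries that share this one departure, such likeness is a property of these libraries.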

How the data were processed

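RNA of 9 MLE-12 libraries was measured with a stranded mRNA kit, per the labels' protocols. The authors deposited 1 table of RPKM with 1 column per library. TopHat2 (version 2.0.7) and the builds GRCm38 and mm10 are named in the submitters' processing notes. The counter, the annotation and the use of strand are not given in the sources used here. All value columns were used. The members and lists were chosen with earlier results of these data known.

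Values were not rescaled. A linear model with 3 groups was fitted to log2(RPKM + 1) with limma (version 3.58.1, R 4.3.3), with a variance trend, for 11125 genes with a mean of at least 1 RPKM, and p-values were adjusted by Benjamini-Hochberg. Because of the added 1, log2 fold changes understate differences of low genes. The fit and the recovery of reads were tested on simulated data. Intervals are at the 95% level and unadjusted.

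Whole reads were recovered from the RPKM steps for 94.9% of genes above 0, with a tolerance of 0.01. Genes were matched to GENCODE M21. Genes named beside the members are, per list, up to 4 called genes with the smallest F-test p, all 9 prostanoid receptors, 3 neighbours on either side of Ptgds and Cbr2, and the 8 genes most like Ptgds. Others, such as Pla2g12a, Pla2g15, Cbr1, Rbp4 and Lcn2, were named after their values were seen. Values of Ptger1 are not reported here. Alternatives were other pseudocounts, filters and scaling, a fit of 2 groups, a replicate block, leaving out libraries, and voom on recovered reads.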

Additional observations from a re-analysis of the deposited data

How the results depend on the processing

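Ptgds, Cbr2, Pla2g4a and Ptges2 kept their direction over control under the settings that fitted them; at a mean of at least 5 RPKM Pla2g4a and Ptges2 were not fitted. The log2 fold change of Ptgds over control was 6.31 with deficient and 6.12 with wild-type vesicles at a pseudocount of 0.1, and 6.57 and 6.37 with voom, against 4.91 and 4.71 as reported. At a mean of at least 5 RPKM, 11 pathway genes were called in each comparison with control in place of 21, among 15 tested in place of 25. Of all 8348 genes tested at that level, 6253 were called with deficient and 6275 with wild-type vesicles. Between the vesicle groups 5 pathway genes were called, against 0 without the level filter and 0 with only the 2 groups compared. When 1 library was left out 0 to 15 were called. Without the filter 19 of 58 pathway genes had an unadjusted limma p under 0.05, beside 4976 of all 18207 genes. With only the 2 groups compared 12 of 25 had one, beside 3397 of all 11125. With the number as a replicate block, in the vesicle libraries alone, 0 pathway genes and 1 gene of the whole table were called. Ptgds kept 0.19 there (adjusted p = 0.152). In that fit 9 of 25 pathway genes had an unadjusted p under 0.05, beside 3156 of all 11125. Same-numbered libraries had correlations of 0.11, −0.127 and 0.0355, which show no pairing by number but are too few to exclude it. No paired analysis was possible for the comparisons with control because control columns carry no sample. Of all tested genes, 2042 were called between the vesicle groups, 1 without the filter, 0 with only the 2 groups, 704 to 909 without 1 control library, 1897, 0 and 2 without deficient library 1, 2 or 3, 0 without wild-type library 1 or 2, and 4686 without wild-type library 3. After median-of-ratios scaling 41.8% in place of 70.4% of the called genes were higher. The difference of Ptgds between the vesicle groups was 0.131 to 0.279 without 1 library and reached the threshold only without wild-type library 3. Small differences between the vesicle groups turned: Ptges2 was −0.00372 to 0.144 without 1 library, with the lowest value without wild-type library 1, and −0.115 without wild-type libraries 1 and 2. Pla2g4a was −0.0266 under median-of-ratios scaling and −0.0285 to 0.0443 without 1 library, with values below 0 without deficient library 2 (−0.0172) or wild-type library 3. The cause was not tested. Depth limits Hpgds, Ptges, Ptgis and Hpgd, with few or no reads per library.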
